A study of Mus musculus with 2 samples.

Results

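The trace amine-associated receptor (Taar) genes form a single cluster on mouse chromosome 10. The 10 members described here are Taar2, Taar3, Taar4, Taar5, Taar6, Taar7a, Taar8a, Taar8b, Taar8c and Taar9, taken by gene name. They are 10 of the 15 protein-coding Taar genes of the annotation and 10 of 21755 protein-coding genes placed against the boundaries. The other 5 (Taar1, Taar7b, Taar7d, Taar7e and Taar7f) lie in the same cluster and are given as neighbours.

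In situ Hi-C counts contacts between stretches of chromatin, here cut with DpnII at GATC, in immediate neuronal precursor cells of the olfactory epithelium. The cells were sorted by FACS from FVB/NTac pups of mixed sex, with no treatment and no modification listed, while the sorting protocol speaks of Ngn1-GFP mice and of immature olfactory sensory neurons. There were 2 biological replicates, of 2200000 and 2100000 cells, in 1 group, and boundaries were called on the matrix combined from both. No value therefore has a replicate error, the sequencing depth is unknown, no test between conditions exists, and the identity of the cells could not be checked against markers in a list of boundaries.

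Trace amine-associated receptors are G protein-coupled receptors that sense volatile amines, and all but Taar1 are known as olfactory receptors of the nose. A mature olfactory neuron that uses this family expresses a single member, much as other neurons express a single olfactory receptor gene. A boundary is a position across which contacts are depleted. The stretch between neighbouring boundaries is called a domain, and contacts within it are more frequent than contacts across its borders. The protein CTCF, bound to a directional motif, is known to hold many borders in place together with cohesin.

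All 10 Taar genes lay in 1 domain on chromosome 10 (GRCm38, 23790001 to 24135000), which was 345 kb long. Its left border, on the side of lower coordinates, was the interval 23785001 to 23790000 with a score of 1.18. Its right border was the interval 24135001 to 24140000 with a score of 1.01. Scores were taken as the authors gave them, and their class follows the score, with strong boundaries from 0.5 and weak ones from 0.2. Both borders belonged to the strong class, in which the median was 0.874. No boundary of either class lay between Taar2 and Taar9, a span of 171 kb, or anywhere else between the first and last gene named Taar.

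**Figure D1:**
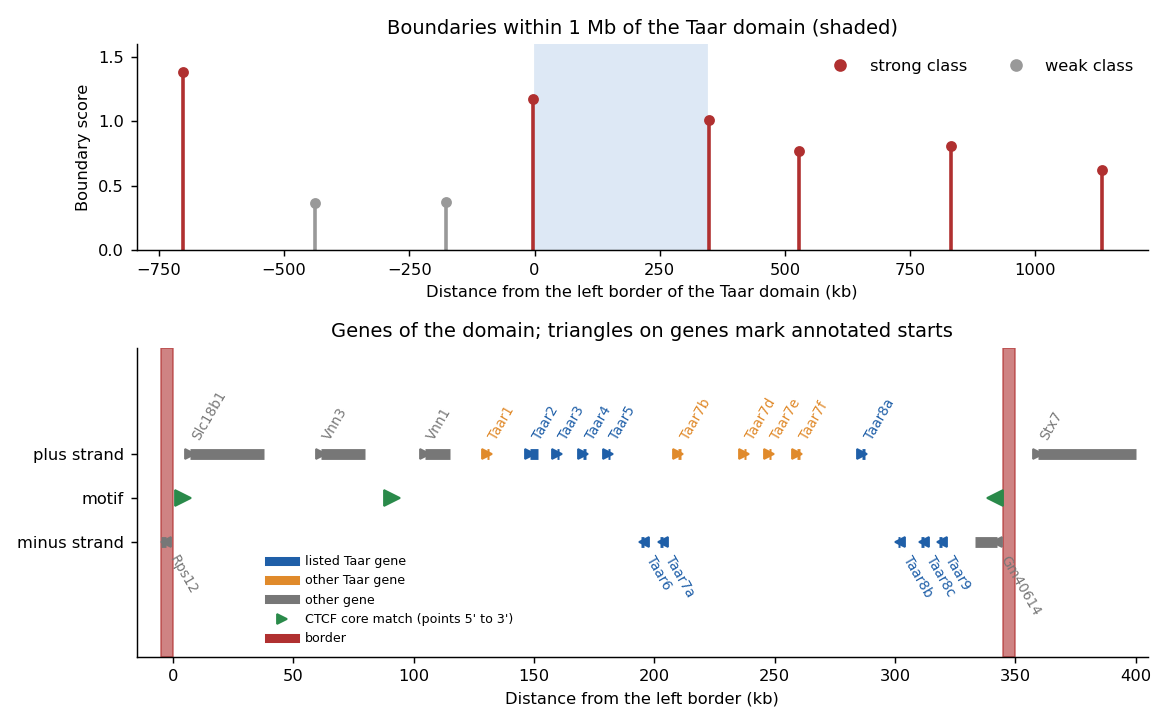
The upper plot gives the score of each boundary (vertical axis) within 1 Mb of the Taar domain against the distance from its left border in kb. The lower plot shows protein-coding and long noncoding genes by strand, including Rps12 in the left border and Stx7 beyond the right one. The 10 listed Taar genes are in blue and the 5 other Taar genes in orange. Green triangles mark the 3 matches to the CTCF core motif. The Taar genes fill the middle and right of the domain, and the borders stand at scores of 1.18 and 1.01.

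Exact matches to the core of the CTCF motif lay just inside both borders, so these sequences are shown. The search covered the domain and 10 kb beyond each end, on both strands of the GRCm38.p6 reference, for the 12-base CTCF core consensus. It found 3 matches. The left one (chr10:23794353-23794382, plus strand) began 4.36 kb inside the left border, between Rps12 and Slc18b1 and in no annotated gene. The middle one (chr10:23880879-23880908, plus strand) was intergenic, between Vnn3 and Vnn1. The right one (chr10:24131626-24131655, minus strand) ended 3.36 kb before the right border, in an intron of the long noncoding gene Gm40614. Each is printed on its own strand with the match in capitals and 9 bases on either side.
Left match: aagcgttcaCCACCAGATGGCtgatgcttt
Middle match: caaatgtggCCAGCAGAGGGCcctaatatg
Right match: tcaaattgaCCACTAGGGGGCagcaaatta

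The matches near the borders read toward each other, plus strand on the left and minus strand on the right. Between the middle and right matches ran 251 kb without one, and this stretch held all 15 Taar genes. Exact matches are sparse, at 4.97 per Mb of the genome, and 31.1% of domains, of any length, held none. That share is not one for stretches of 251 kb, and nothing particular to the Taar genes is read from this one. The Taar domain as a whole held 3 matches against a median of 1, and 21.1% of domains held at least as many. A match was found at 18.7% of the 7841 boundaries and at 24.6% of the 4137 strong ones, in the interval or the adjoining 5 kb bins, against 6.89% of all 5 kb bins taken the same way. Of 7821 domains, 373 (4.77%) had a match at both borders. Facing matches were found at 104 domains (1.33%), the Taar domain among them, and matches in the opposite arrangement at 123 (1.57%). The bins counted lie on either side of a border, and a domain with several matches can count under more than 1 arrangement. These counts therefore do not show which arrangement is the commoner one. Weaker motif matches and CTCF binding were not analysed here.

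The Taar domain was longer than the median domain, and both of its borders were strong. Its 345 kb compared with a median of 260 kb (quartiles 180 and 385 kb) over all 7821 domains, and 31.6% of domains were at least as long. The left border ranked 997th and the right border 1527th of 7841 boundaries by score, against a median score of 0.533. On chromosome 10 they ranked 47th and 76th of 386. Taking the weaker border of each domain, the Taar domain had 1.01 against a median of 0.337 over all domains. Borders of the strong class on both sides were found at 2170 domains (27.7%), and both borders reached the Taar domain's own weaker score at 195 (2.49%).

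Few domains held as many genes between such borders. The Taar domain contained 18 protein-coding starts against a median of 1 (quartiles 0 and 3), and 83 domains (1.06%) held at least as many. Of the 18 starts, 15 (83.3%) were Taar genes. At least 18 starts together with 2 borders at or above 1.01 were found in 4 domains of the genome. Besides the Taar domain, these were a stretch of histone genes on chromosome 13 (21710001 to 22055000), a stretch from Pilra to Mblac1 on chromosome 5 (137790001 to 138200000) and a stretch from Ocel1 to Fcho1 on chromosome 8 (71370001 to 71750000), named after their values were seen. The histone stretch was also 345 kb long, held 26 starts, 23 of them histone genes, and had border scores of 1.41 and 1.51. The limits of 18 starts and 1.01 are the Taar domain's own values, so these counts only describe where it stands.

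**Figure D2:**
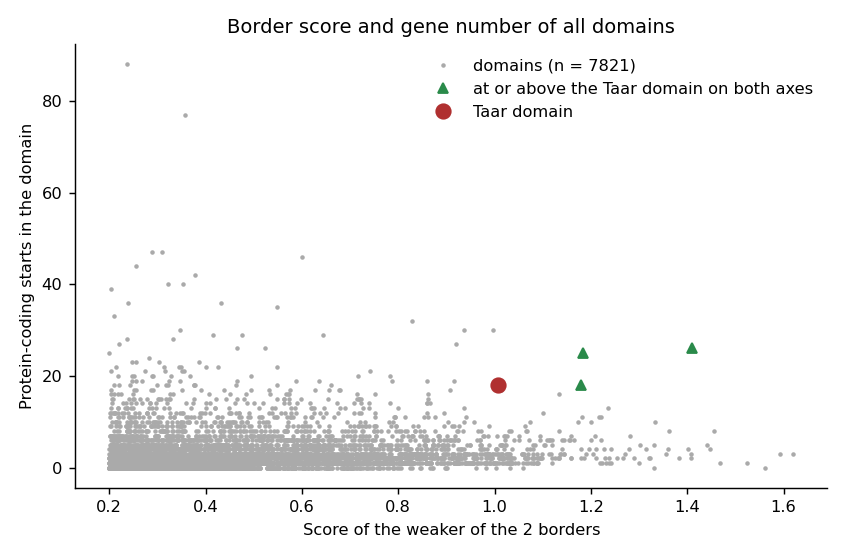
Each point is 1 of 7821 domains, with the score of the weaker of its 2 borders on the horizontal axis and its number of protein-coding starts on the vertical axis. The Taar domain (red) stands at 1.01 and 18 starts, and 3 other domains (green) lie at or above it on both axes.

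Within the domain, the listed Taar genes with the lowest coordinates lay near its centre. The centre was 172.5 kb from either border. The gene start here is the 5′ end of the GENCODE M21 gene model, and for all 10 members that is the first base of the start codon, since the models hold no upstream exon. The true start sites may lie further upstream, and each distance below refers to the annotated start. Distances run from the edge of the boundary interval.

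Taar2 (ENSMUSG00000059763, 23938572 to 23941583, plus strand), the only member with 2 coding exons, began 149 kb from the left border and 196 kb from the right. Taar3 (ENSMUSG00000069708, from 23949558, plus strand), a receptor for isoamylamine, began 160 kb from the left border and 185 kb from the right. Taar4 (ENSMUSG00000069707, from 23960494, plus strand), which detects phenylethylamine, was the most central, 170 kb from the left border and 175 kb from the right. These 3 genes were the only members nearer to the left border.

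Taar5 (ENSMUSG00000069706, from 23970706, plus strand), the receptor for trimethylamine, began 164 kb from the right border and 181 kb from the left. Taar6 (ENSMUSG00000045111, 23984609 to 23985646, minus strand) was 149 kb from the right border. Taar7a (ENSMUSG00000095647, 23992405 to 23993481, minus strand) was 142 kb from it. From Taar2 to Taar7a, then, 6 members lay between 142 and 170 kb from any boundary.

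The other 4 members were closer to the right border than Taar2 to Taar7a. Taar8a (ENSMUSG00000096442, from 24076500, plus strand) began 58.5 kb from it and Taar8b (ENSMUSG00000100186, 24091260 to 24092294, minus strand) 42.7 kb. Taar8c (ENSMUSG00000100004, 24100878 to 24101912, minus strand) was 33.1 kb away. Taar9 (ENSMUSG00000037424, 24108488 to 24109534, minus strand) was the closest of all members to a boundary, at 25.5 kb. The step between the groups, from 142 to 58.5 kb, is where Taar7b, Taar7d, Taar7e and Taar7f lie, at 135, 108, 97.4 and 85.5 kb from the right border. Taar1 was 130 kb from the left border.

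**Figure D3:**
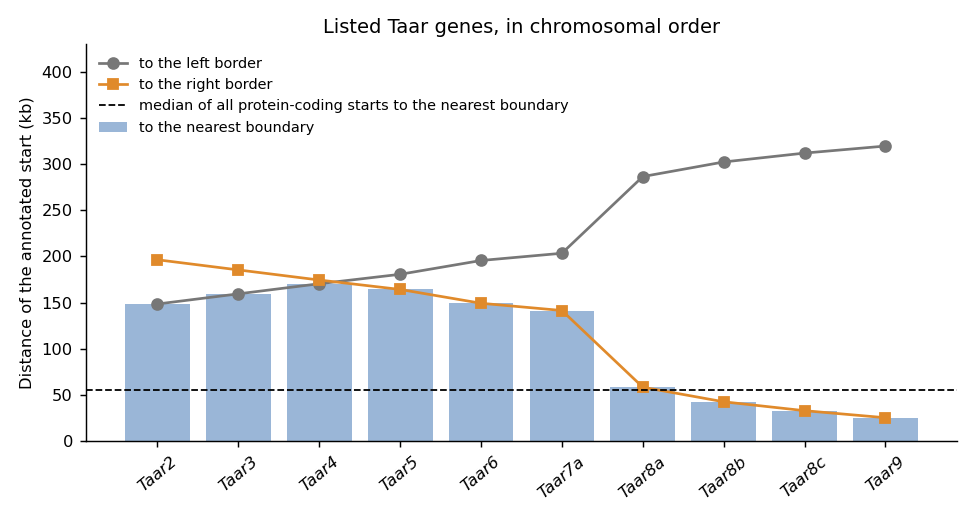
For each of the 10 listed Taar genes in chromosomal order, the points give the distance of the annotated start to the left and right borders in kb and the bar the distance to the nearest boundary. Bars stand between 142 and 170 kb for Taar2 to Taar7a and between 25.5 and 58.5 kb for Taar8a to Taar9, and the dashed line marks the 55.3 kb median of all protein-coding starts.

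The median distance of all 21755 protein-coding starts was 55.3 kb (quartiles 21.4 and 102 kb). Against these, the 10 listed members formed a remote and an ordinary group, with the unlisted Taar7b, Taar7d, Taar7e and Taar7f between them. The median over the 10 members was 145 kb, and over all 15 Taar genes 130 kb. Of all starts, 89.9% were as close to a boundary as Taar4 or closer, and 85.6% as close as Taar7a. The same share was 52.1% for Taar8a, 41.0% for Taar8b, 33.6% for Taar8c and 28.1% for Taar9. On chromosome 10 alone, with 1021 genes and a median of 51.3 kb, the values for Taar4 and Taar9 were 92.7% and 29.6%. The members share 1 locus and 1 pair of borders, so the 10 distances are not independent observations.

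None of the 10 started inside a boundary interval or within 10 or 25 kb of one, where 5.07%, 16.4% and 27.8% of all protein-coding starts did. Within 50 kb there were 3 of 10 (Taar8b, Taar8c and Taar9), against 46.3%. Within 100 kb there were 4 of 10, Taar8a being added, against 74.2%. With 10 neighbours in 1 domain, these shares describe a single placement.

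The genes at the borders belonged to other families. The left border interval contained the whole of Rps12, which encodes a ribosomal protein of the small subunit. Slc18b1, a vesicular polyamine transporter gene, began 6.99 kb inside that border. Vnn3 and Vnn1, which encode pantetheinases, followed at 61.5 and 105 kb, so that 3 genes of other families lay between the left border and Taar1. On the right, only Gm40614 separated Taar9 from the border, and its start was 2.52 kb from it. Stx7, which encodes an endosomal syntaxin, began 9.30 kb beyond the right border. With all gene types counted, the domain held 22 gene starts, the 18 protein-coding ones, Gm40614 and 3 pseudogenes, of which Taar7c-ps is one.

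The flanking domains were shorter and had fewer genes than the Taar domain. Their numbers of protein-coding starts lay within the quartiles over all domains (0 and 3). The domain to the left (23615001 to 23785000) was 170 kb long, contained no protein-coding start and had a weak far border with a score of 0.37. The next protein-coding gene on that side, Eya4, a transcriptional coactivator, started in a weak boundary with a score of 0.366, and Tcf21, a mesodermal transcription factor gene, lay beyond, 45.2 kb from a boundary scored 0.51. The domain to the right (24140001 to 24315000) was 175 kb long, held Stx7 and the monooxygenase gene Moxd1 (83.5 kb from the right Taar border), and ended at a boundary with a score of 0.769. Ccn2, which encodes a matricellular protein, came next, 24.6 kb from a boundary scored 0.806. Among the 8 boundaries of the region, those bounding the Taar genes were exceeded only by one at 23085001 to 23090000, with a score of 1.39.

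Similarity among the coding sequences differed along the cluster. Over 45 pairs of members, identity of the aligned coding sequence ranged from 54.0% to 98.1%, with a median of 57.3%. Taar8a and Taar8c were the most alike (98.1%, 20 differing positions of 1032), then Taar8b and Taar8c (97.5%) and Taar8a and Taar8b (96.6%), and no other pair of members exceeded 90%. Taar6 was nearest to Taar8c (78.5%), 116 kb away. Taar2 and Taar3 were 65.0% identical. The highest identity of Taar5 with another member was 58.7%, with Taar9, little above the 57.8% with Taar6. Taar7a was 91.7 to 93.5% identical to its unlisted neighbours Taar7b, Taar7d, Taar7e and Taar7f.

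The first 30 coding bases show how closely the Taar8 copies resemble each other. Capitals mark bases that differ from Taar8b, and all sequences are from GRCm38.p6, written 5′ to 3′ on the strand of the gene. The positions are chr10:24076500-24076529 (plus) for Taar8a, chr10:24092265-24092294 (minus) for Taar8b, chr10:24101883-24101912 (minus) for Taar8c, chr10:24109505-24109534 (minus) for Taar9 and chr10:23970706-23970735 (plus) for Taar5.
Taar8a: atgaccagcaacttttcccaaccagccctg
Taar8b: atgaccagcaacttttcccaaccagccctg
Taar8c: atgaccagcaacttttcccaaccagccctg
Taar9: atgacAagcGacttCtcccCaGAaCcGcCC
Taar5: atgaGAGCTGTcCtCCTccCGGGCTcTGGA

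The 3 Taar8 genes are identical over this stretch, while Taar9 differs from them at 10 positions and Taar5 at 21. Such copies bear on Hi-C because a read must map to 1 place. Of the 50-base windows in each gene, 72.5% in Taar8c, 56.4% in Taar8b, 50.9% in Taar8a and 38.6% in Taar7a occurred again within the domain. The share was 0.101% in Taar6 and 0 in Taar2, Taar3, Taar4, Taar5 and Taar9.

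Over the whole stretch, genes included, most sequence was unique. In the 35 bins of 5 kb from Taar2 to Taar9, a median of 88.6% of sampled 50-mers occurred once in the reference chromosomes, with a lowest value of 59.2% in the bin 225 to 230 kb from the left border. The whole domain had 87.7%, below the median domain (93.2%) and close to the 88.5% of all bins together. Only 2 of its 69 bins fell under 50%, and they lay 80 to 90 kb from the left border, outside the Taar genes. DpnII sites numbered 2.54 per kb in the domain against a domain median of 2.46, and 7 to 25 per bin over the Taar genes. The restriction fragments that hold the starts of the 10 members were 204 to 1735 bases long. GC content was 41.4% against a domain median of 42.3%, and 39.1% of the domain was repeat-masked against 30.7%. How far repeated sequence affects the absence of a boundary between Taar2 and Taar9 was not tested.

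**Figure D4:**
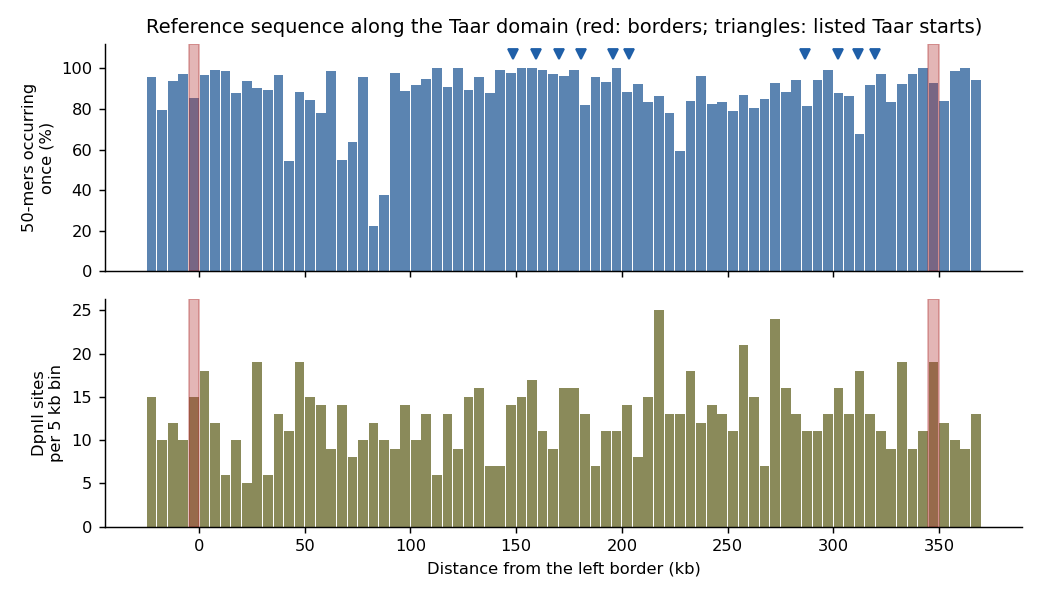
Bars give, for each 5 kb bin, the percentage of sampled 50-mers that occur once in the reference (upper) and the number of DpnII sites (lower) against the distance from the left border in kb. Red bands are the borders and triangles the starts of the 10 listed Taar genes. The 2 bins under 50% lie at 80 to 90 kb, left of all Taar genes.

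Other chemoreceptor families were placed in the same way. Median distances of annotated starts to the nearest boundary were 75.9 kb for 1135 olfactory receptor (Olfr) genes, 152 and 161 kb for 209 Vmn1r and 120 Vmn2r genes of the vomeronasal organ, and 215 kb for 35 Tas2r bitter taste receptor genes, against 130 kb for the 15 Taar genes. The boundary nearest to a Taar gene had a median score of 1.01, while for the other families the median lay between 0.378 and 0.492. Over all protein-coding starts that median was 0.65, and for 24.9% the nearest boundary scored at or above the right Taar border. Some vomeronasal genes lie in highly repeated sequence. A cluster of 65 Vmn1r genes on chromosome 7, with 17.6% of 50-mers occurring once, had a median distance of 763 kb. For 17 Vmn2r genes on chromosome 7 these values were 13.3% and 1016 kb, and for 22 on chromosome 17 they were 86.0% and 108 kb. How far repeated sequence affects the family medians was not tested. All Taar genes share the same 2 boundaries, and the differences between families were not tested.

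Runs of at least 5 genes of 1 family with gaps of at most 500 kb gave 56 clusters, including the Taar cluster from Taar1 to Taar9 (189 kb). No boundary lay inside the Taar cluster, nor inside 14 of the 55 others. Short clusters often had none: of 7 others no wider than the Taar cluster, 6 were free of boundaries. Those free of boundaries with at least 15 genes numbered 3 besides the Taar cluster. In these 3, the share of 50-mers occurring once was 13.3% (Vmn2r, chromosome 7), 74.8% (Vmn1r, chromosome 6) and 75.4% (Tas2r, chromosome 6). Over the 56 clusters, the weaker of the 2 flanking boundaries had a median score of 0.441, and 22 clusters were flanked by strong boundaries on both sides. Both flanking scores were at least 1.01 for the Taar cluster, for a cluster of 28 Olfr genes on chromosome 2 with 2 boundaries inside and for a cluster of 28 Vmn1r genes on chromosome 6 with 4. Among the 14 other clusters without an inner boundary, the highest weaker score was 0.862, for 13 Olfr genes on chromosome 4. Unique 50-mers made up 89.2% of the Taar cluster, and 3 other clusters had more. The median was 80.5%, and repeated sequence was not matched between clusters.

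**Figure D5:**
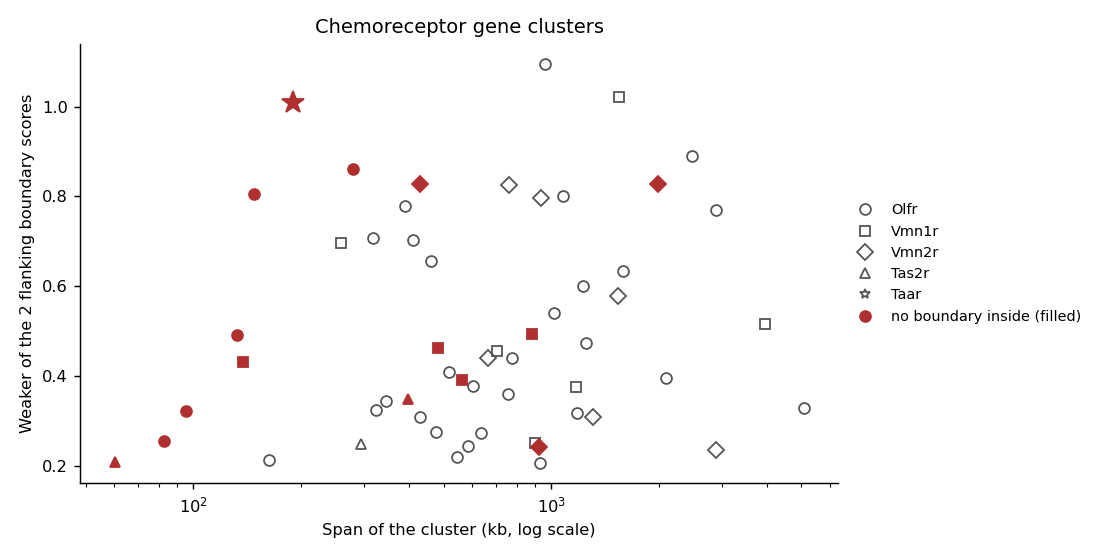
Each symbol is 1 of 56 chemoreceptor gene clusters, with its span in kb on a log axis and the lower score of its 2 flanking boundaries on the vertical axis. Filled symbols have no boundary inside. The Taar cluster (star, 189 kb and 1.01) is the filled symbol with the highest flanking score.

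The 3 clusters closest in span to the Taar cluster resembled it to different degrees. A cluster of 6 Olfr genes on chromosome 4 (43694784 to 43857595, 163 kb) had 1 strong boundary inside, with a score of 0.608, and flanking scores of 0.214 and 0.815. A cluster of 8 Olfr genes on chromosome 1 (92475925 to 92623412, 147 kb) had none inside and strong flanking boundaries on both sides, with scores of 1.19 and 0.806. It ended 16.6 kb before its right flanking boundary and began 0.924 kb from its left one, whereas Taar1 began 130 kb from its own. A cluster of 5 Vmn1r genes on chromosome 7 (13083313 to 13220657, 137 kb) had none inside and flanking scores of 2.45 and 0.431.

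Genes that act with these receptors were placed from 3 lists. Trace amine receptors are thought to signal through the same cascade as olfactory receptors. Of 18 genes of that cascade and of receptor transport, 1 (5.56%) started within 10 kb of a boundary, against 16.4% of all genes. It was Gnal, which encodes the olfactory G protein subunit, 3.22 kb from a boundary scored 1.57. The farthest was Ric8b, which encodes an exchange factor for that subunit, at 267 kb. Of 11 factors of receptor gene choice and its chromatin, 5 (45.5%) were within 10 kb. They were the transcription factor genes Lhx2 (0.72 kb, score 0.968), Atf5 (1.66 kb, 0.49), Emx2 (3.37 kb, 1.99), Ebf3 (5.56 kb, 1.84) and Ebf1 (7.32 kb, 2.08), and the farthest was Bptf, a chromatin remodelling gene, at 57.9 kb. Of 12 genes of amine synthesis and breakdown, 2 (16.7%) were: Odc1, which makes putrescine (0.207 kb, score 1.19), and Maoa, which degrades amines (9.70 kb, 0.236). Th, which encodes tyrosine hydroxylase, was the farthest at 186 kb. The median distances of the 3 lists were 36.6, 23.3 and 68.1 kb, all under the 145 kb of the members, and nothing particular to a list is read from so few genes.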

How the data were processed

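The file analysed lists 7841 intervals of 5 kb with a class and a score. Per the series' design text, the authors called boundaries on the matrix combined from both replicates, on GRCm38, and the score is the authors' deposited value for each boundary. How they were called (tool, window size, thresholds) is not stated in the labels or the file. In the file, strong boundaries begin at a score of 0.5 and weak ones at 0.2. Contact matrices and insulation and compartment tracks were not analysed here. The reference strain, C57BL/6J, differs from the strain of the cells.

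Genes of the 19 autosomes and chromosome X came from GENCODE M21 and sequence from GRCm38.p6, the build of the file, and no interval lay outside these chromosomes. Distances, domains and clusters were computed with Python 3.11.15 and pandas 2.3.3, and the code was tested on simulated positions. Unique sequence is the share of sampled 50-mers (1 in 32, both strands) found once in the chromosomes. Coding sequences, without the stop codon, were aligned globally with Biopython 1.88 (match score 1, mismatch cost 1, gap opening cost 3, gap extension cost 1), and identity of proteins and promoters was not computed.

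No statistical test was made, since a single pooled list has no replicates. The members, lists and rules were chosen with earlier results of these data known. Named genes were all members, the other protein-coding genes of their domain, the first 3 beyond each border, and from each list those within 10 kb of a boundary or else the nearest, and the farthest. Similar clusters were the 3 closest in span.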

Additional observations from a re-analysis of the deposited data

How the results depend on the processing

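The length of the Taar domain (345 kb), both border scores and the 10 distances could not change with strong boundaries only, with boundaries at or above the median score or with boundaries within 50 kb merged, since both borders pass these limits and no boundary lies between or near them. These settings therefore say nothing about stability. The distances kept their values with every annotated transcript start, but these starts lie within the short gene models and could change the distances little. Measured to the midpoint of the boundary interval, the median distance was 147.5 kb in place of 145 kb. The number of members near a boundary was 0 at limits of 0, 10 and 25 kb, 3 at 50 kb and 4 at 100 kb. No boundary lay between the first and last of all genes named Taar, and with none in the whole list, strong boundaries alone could give no other count. Replicates could not be left out in turn, since the list was made from both together. No paired analysis was possible because there is 1 group. Boundaries are given to 5 kb, and the depth that limits their detection is unknown.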
